A study of Homo sapiens with 12 samples.

Results

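The 10 genes described here regulate or mark the epithelial-mesenchymal transition. They comprise 6 on the mesenchymal side (the transcription factors SNAI1, SNAI2, ZEB1, ZEB2 and TWIST1, and the filament protein VIM) and 4 on the epithelial side (the transcription factors GRHL2 and ELF3, and the splicing regulators ESRP1 and ESRP2). Every probe set annotated to these symbols and to no other gene was taken, 20 of the 41097 such probe sets on the array, and 9 of the 10 genes had at least 1, among 19775 genes in all. The cells were HK-2, an immortalized line of human proximal tubular epithelium, and their total RNA was hybridised to 12 Affymetrix arrays. Near-confluent cells in a medium with EGF, hydrocortisone, insulin and transferrin received a low dose of Kbr for 24 h or 48 h, or the control vehicle for the same times, with 3 biological replicates in each of the 4 groups. Neither the full name of Kbr nor its concentration is given in the sources used here, and all groups come from 1 immortalized line in culture, which limits them as a model of the tubule. Values are log2 expression, so a difference of 1 is 2-fold. Array medians lay between 2.91 and 2.99, and arrays of the same group correlated at r = 0.982 to 0.993.

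In an epithelial-mesenchymal transition, epithelial cells lose their junctions and apical-basal polarity and take on motile, matrix-producing traits. Zinc finger factors of the SNAI and ZEB families and the basic helix-loop-helix factor TWIST1 repress junction genes such as CDH1, in part through E-box motifs in promoters, while GRHL2 opposes ZEB1 and the ESRP proteins keep transcripts such as FGFR2 and CD44 in their epithelial splice forms. In the kidney such partial transitions of tubular cells have been studied in injury and fibrosis, and cultured tubular lines express vimentin beside keratins.

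After 48 h of Kbr, ZEB1 rose and ELF3 fell. They were the 2 of 5 tested genes that passed in the fit that left the arrays unpaired, against 42.8% of all tested genes. The rest of the 10 genes were not tested in that fit. With the arrays paired by replicate number VIM passed too, lower in Kbr (limma adjusted p = 0.0059), against 57.5% of all tested genes. The sequences upstream of ZEB1 and ELF3 are shown because E-boxes are the motif that ZEB1 and the SNAI factors bind. The window of VIM is shown beside them as one without this motif. VIM was picked for that lack and windows of other members are not shown, so these windows cannot compare called with uncalled genes. Each is the 250 bases before a transcription start in RefSeq on GRCh38.p14, on the plus strand, at chr1:202010337-202010586 for ELF3, chr10:31318167-31318416 for ZEB1 and chr10:17227991-17228240 for VIM. Capitals mark E-boxes, written CANNTG, and 1 window was taken for ZEB1, the most upstream of its 7. Of those 7 windows, 2 held CACCTG on either strand and 4 held CANNTG, so 5 held no CACCTG and 3 held no CANNTG.
ELF3 upstream: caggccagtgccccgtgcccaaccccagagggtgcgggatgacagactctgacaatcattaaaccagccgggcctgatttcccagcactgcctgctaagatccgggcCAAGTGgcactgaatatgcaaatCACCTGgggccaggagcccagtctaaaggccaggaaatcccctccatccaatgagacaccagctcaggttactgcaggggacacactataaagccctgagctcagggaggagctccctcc
ZEB1 upstream: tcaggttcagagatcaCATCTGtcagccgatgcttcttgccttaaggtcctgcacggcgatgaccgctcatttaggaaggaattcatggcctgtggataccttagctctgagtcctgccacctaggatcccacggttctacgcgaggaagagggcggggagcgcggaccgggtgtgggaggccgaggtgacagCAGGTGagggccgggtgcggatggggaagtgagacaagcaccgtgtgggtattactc
VIM upstream: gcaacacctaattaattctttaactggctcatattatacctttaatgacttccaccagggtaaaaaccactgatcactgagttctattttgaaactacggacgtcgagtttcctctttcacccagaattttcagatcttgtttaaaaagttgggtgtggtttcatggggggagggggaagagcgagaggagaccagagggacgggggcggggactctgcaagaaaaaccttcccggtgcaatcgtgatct
The form CACCTG, which the ZEB and SNAI factors prefer and which is 1 case of CANNTG, was searched on both strands. The ELF3 window held it once, with its first base 120 bases before the start, beside a CAAGTG at 143 bases. The ZEB1 window held it once on the other strand, as CAGGTG at 57 bases, beside a CATCTG at 234 bases, and the VIM window held no CANNTG. Of 35116 such windows of 27305 genes, 17.5% held CACCTG on either strand and 61.8% held CANNTG. A match describes these letters only.

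Of the 10 genes, 5 were measured above the low-value filter: ZEB1, TWIST1, VIM, ELF3 and ESRP1. The filter asked for a log2 value above 4 on at least 3 of the 12 arrays, whatever their group, and 10 of the 20 probe sets met it. SNAI1, the zinc finger factor Snail on chromosome 20, lay between 3.65 and 4.27 and exceeded 4 on 1 array, replicate 3 of Kbr at 48 h. SNAI2, which encodes Slug and lies on chromosome 8, stayed between 2.42 and 2.58. All 5 probe sets of ZEB2, the second ZEB factor on chromosome 2, lay between 2.38 and 3.29. GRHL2, a Grainyhead-like factor on chromosome 8 that sustains CDH1 in epithelia, stayed between 2.29 and 2.36. These 4 genes did not meet the filter and were not tested in the main fit. In a fit without the filter none of them passed in any comparison, with limma adjusted p of 0.425 or more.

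**Figure D1:**
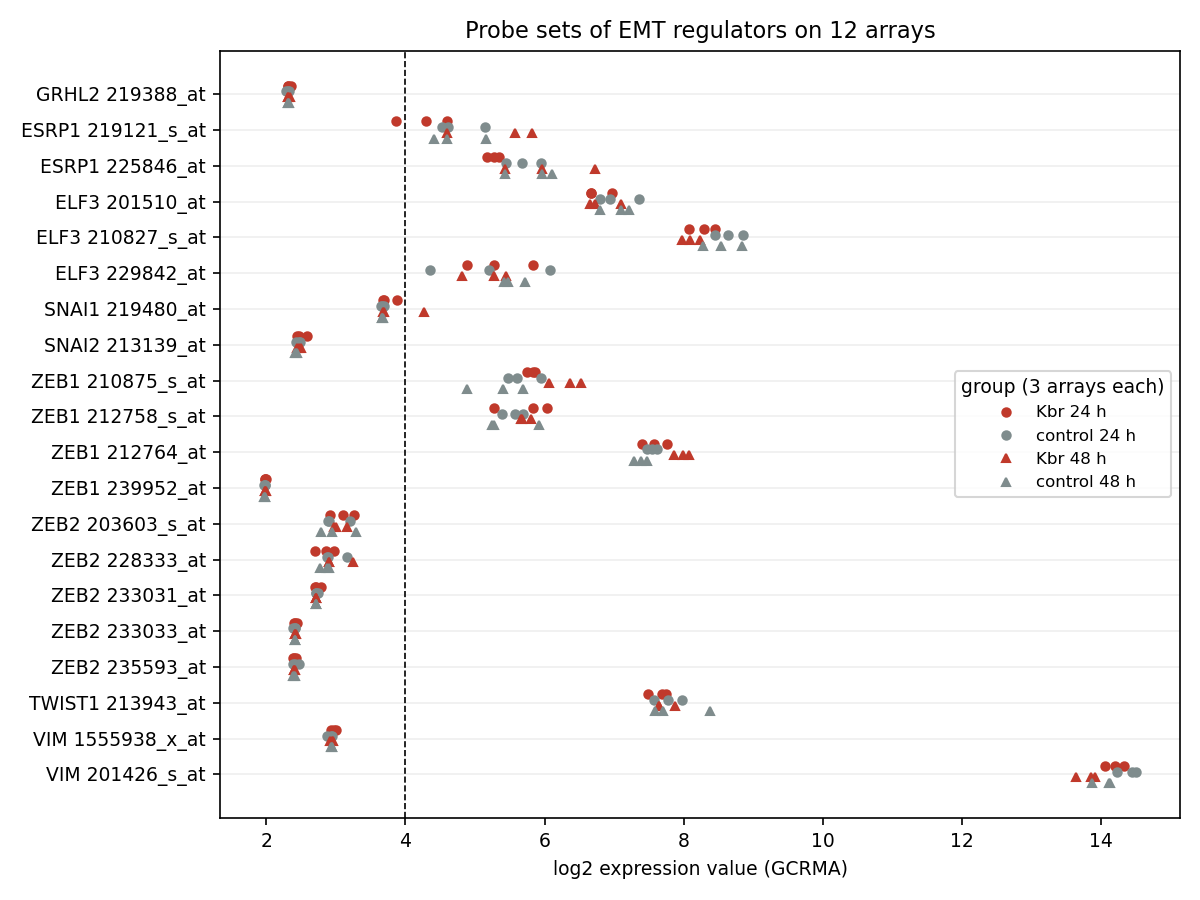
Log2 expression of the 20 probe sets of 9 genes (rows) on each of the 12 arrays, with Kbr in red and control in grey, circles for 24 h and triangles for 48 h; the dashed line is the filter floor of 4. The 5 ZEB2 probe sets, SNAI2 and GRHL2 lie below the floor on every array, and VIM 201426_s_at lies above 13.

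The plot of all probe sets shows how the probes of the measured genes differ. ZEB1, on chromosome 10, had 3 probe sets above the floor and another, 239952_at, at 1.97 to 2.00 on all arrays. VIM, also on chromosome 10, had 201426_s_at at 13.63 to 14.50 and 1555938_x_at at 2.88 to 3.00. ELF3 on chromosome 1 had 3 measured probe sets, ESRP1 on chromosome 8 had 2 and TWIST1 on chromosome 7 had 1. ESRP2, on chromosome 16, is annotated only on 219395_at together with the microRNA gene MIR6773. That probe set lay between 8.22 and 8.89 on the 12 arrays, and because its signal could come from either gene it was not assigned to ESRP2. Brightness depends on the probes, so levels of different probe sets are not set against each other. Where in each transcript the probes lie was not analysed here. For each gene the probe set with the highest mean stands for it below, unless another is named.

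The comparison after 24 h asked whether these regulators differed early in exposure. No member passed the test at 24 h: of 5 tested, 0 rose and 0 fell with limma and Benjamini-Hochberg adjustment over the 10665 genes tested at a threshold of 0.05, against 5.74% of all tested genes. The largest differences were lower ESRP1 and ELF3 in Kbr. At an unadjusted p under 0.05, 1 member, ELF3, would count, against 23.7% of all tested genes. With the replicate number as a block, which the pairing of the arrays allows, ELF3 and VIM passed, both lower in Kbr, against 24.4% of all genes.

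ELF3, an ETS-family transcription factor of epithelia (210827_s_at), had log2 values of 8.29, 8.07 and 8.45 on the Kbr arrays at 24 h, against 8.64, 8.45 and 8.85 on the controls. The Kbr arrays were the low ones and did not overlap with controls, although the nearest values of the groups are both 8.45 when rounded. Within each replicate number ELF3 was lower in Kbr, by log2 differences of -0.35, -0.38 and -0.40. The log2 change was -0.38 (standard error 0.16, limma adjusted p = 0.181, and adjusted p = 0.0285 with the replicate block). ESRP1, the epithelial splicing regulator (225846_at), had 5.28, 5.18 and 5.34 in Kbr, against 5.45, 5.95 and 5.68 in controls. All 3 Kbr arrays lay below all 3 controls, with a log2 change of -0.43 (standard error 0.28, limma adjusted p = 0.395). Its second probe set, 219121_s_at, gave -0.50 (standard error 0.32, adjusted p = 0.413 over the 19527 probe sets tested one by one), and there the groups overlapped. ELF3 and ESRP1 were the 2 of 5 members whose groups did not overlap at 24 h, and over all tested genes 31.8% did not.

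The mesenchymal genes at 24 h lay closer together. ZEB1 (212764_at) had 7.76, 7.40 and 7.57 in Kbr, against 7.47, 7.54 and 7.62 in controls. The groups overlapped fully, with a log2 change of 0.03 (standard error 0.11, limma adjusted p = 0.906) whose sign turned to -0.06 without Kbr replicate 1 and to -0.01 without control replicate 1. TWIST1 (213943_at), a basic helix-loop-helix factor, had 7.75, 7.48 and 7.69 in Kbr, against 7.98, 7.57 and 7.78 in controls. It was lower in Kbr in each of the 3 pairs, while the groups overlapped (log2 change -0.14, standard error 0.19, limma adjusted p = 0.719). VIM (201426_s_at), the intermediate filament of mesenchymal cells, had 14.19, 14.05 and 14.33 in Kbr, against 14.44, 14.22 and 14.50 in controls. Here too the groups overlapped and every pair was lower in Kbr, with a log2 change of -0.20 (standard error 0.12, limma adjusted p = 0.356, and adjusted p = 0.0367 with the replicate block). The median log2 change of the 5 members was -0.20, beside -0.016 over all tested genes.

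**Figure D2:**
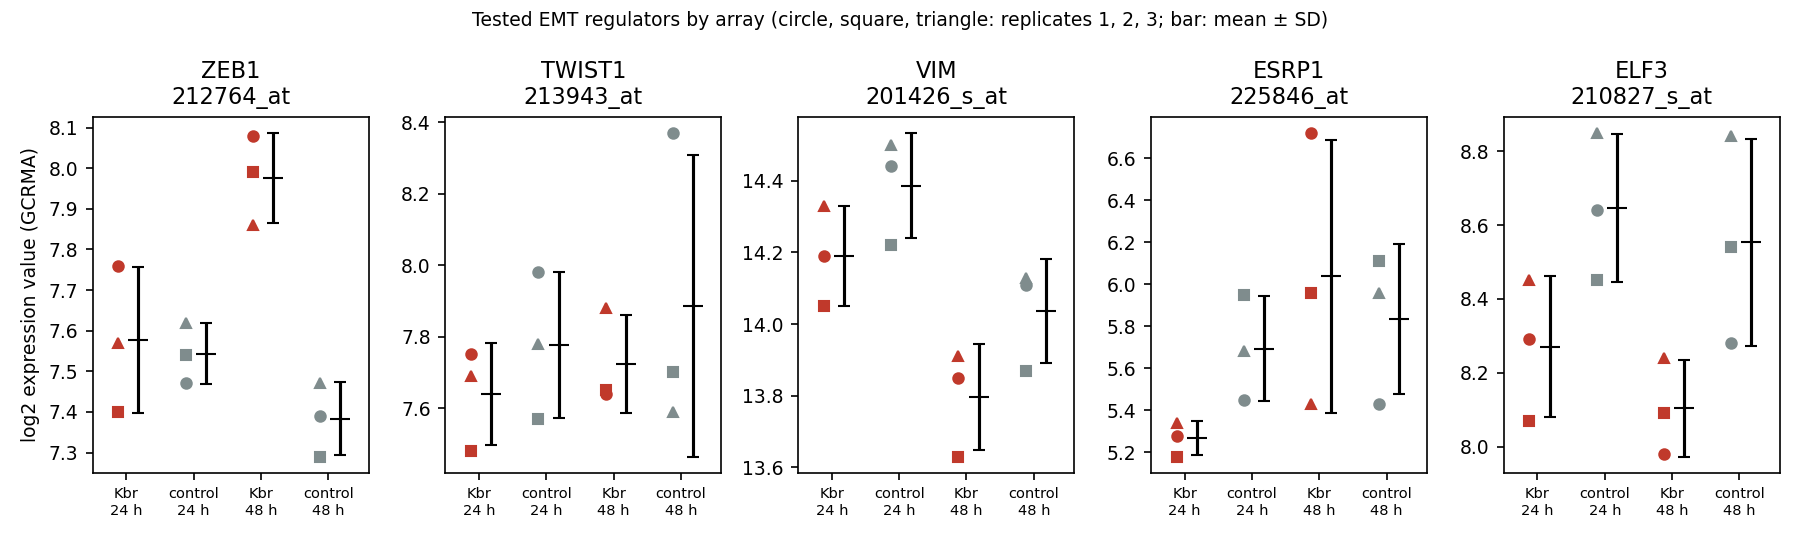
Log2 expression of the 5 measured genes on each array (vertical axes, not starting at 0) in the 4 groups, with symbols for replicates 1 to 3, Kbr in red, control in grey, and mean ± SD of 3 arrays beside each group. ZEB1 in Kbr at 48 h, at 7.86 to 8.08, lies above all other groups, and VIM in both groups is lower at 48 h than at 24 h.

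The same comparison after 48 h showed ZEB1 higher and ELF3 lower in Kbr-treated cells. Of the 5 measured members 1 rose, 1 fell and 3 did not pass, where 42.8% of all tested genes passed, 22.0% higher and 20.8% lower. The count of members is therefore near the background of this time point. VIM passed too with the replicate block, where 57.5% of all genes did. The median log2 change of the 5 was -0.16, beside -0.004 over all genes.

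ZEB1 (212764_at) had log2 values of 8.08, 7.99 and 7.86 in Kbr at 48 h, against 7.39, 7.29 and 7.47 in controls. The 3 Kbr arrays were the highest of all 12 arrays and did not overlap with controls. ZEB1 averaged 7.98 ± 0.11 in Kbr and 7.38 ± 0.09 in controls (SD, n = 3 each), a 1.51-fold rise (log2 change 0.60, standard error 0.11, limma adjusted p = 0.00156). The pairs differed by 0.69, 0.71 and 0.39, and the call held in 12 of the 12 fits that left out an array, with adjusted p up to 0.00748.

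The second ZEB1 probe set, 210875_s_at, had 6.36, 6.53 and 6.06 in Kbr, against 4.88, 5.40 and 5.69 in controls at 48 h. These groups did not overlap either, and the log2 change was 0.99 (1.99-fold, standard error 0.20, limma adjusted p = 0.00325 over probe sets). The third, 212758_s_at, had 5.66, 5.67 and 5.81 in Kbr, against 5.28, 5.25 and 5.92 in controls. There control replicate 3 was the highest array, and the probe set did not pass (log2 change 0.23, standard error 0.21, adjusted p = 0.411). The 3 probe sets had 24 h log2 changes of 0.03, 0.14 and 0.16, in the order named, none past the test.

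ELF3 (210827_s_at) had 7.98, 8.09 and 8.24 in Kbr at 48 h, against 8.28, 8.54 and 8.84 in controls. All Kbr arrays lay below all controls, with Kbr replicate 3 and control replicate 1 the nearest. ELF3 averaged 8.10 ± 0.13 in Kbr and 8.55 ± 0.28 in controls (SD, n = 3 each), 1.36-fold lower (log2 change -0.45, standard error 0.16, limma adjusted p = 0.0434, and 0.0053 with the replicate block). The call was lost in 6 of the 12 fits that left out an array: without Kbr replicate 1 or 2 at 48 h (adjusted p = 0.123 and 0.0959), control replicate 2 or 3 at 48 h (0.0842 and 0.155), and replicate 1 of Kbr or control at 24 h (0.0574 and 0.057).

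The other ELF3 probe sets did not pass at 48 h. On 201510_at the values were 6.65, 7.10 and 6.73 in Kbr, against 6.79, 7.22 and 7.10 in controls. The groups overlapped, and each pair was lower in Kbr (log2 change -0.21, standard error 0.18, limma adjusted p = 0.382). On 229842_at they were 5.27, 5.44 and 4.82 in Kbr, against 5.48, 5.42 and 5.72 in controls, again with overlap (log2 change -0.37, standard error 0.37, adjusted p = 0.463). Earlier, after 24 h, the log2 change of 201510_at was -0.26 and that of 229842_at was 0.13. Of the 10 measured probe sets of the members 2 rose and 1 fell at 48 h, against 38.6% of all probe sets passing, and 0 passed at 24 h, against 3.74% of all probe sets. At an unadjusted p under 0.05 it was 1 of the 10 at 24 h, against 20.7% of all probe sets.

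ESRP1 did not pass at 48 h, and its Kbr arrays were spread widely. The values of 225846_at were 6.72, 5.96 and 5.43 in Kbr, against 5.43, 6.11 and 5.96 in controls. Kbr replicate 1 was the highest of all 12 arrays and Kbr replicate 3 shared the lowest rounded value of this time point with control replicate 1. The log2 change was 0.21 (standard error 0.28, limma adjusted p = 0.588), and -0.14 without Kbr replicate 1. The second probe set, 219121_s_at, had 5.82, 5.57 and 4.60 in Kbr, against 4.41, 4.60 and 5.16 in controls (log2 change 0.60, standard error 0.32, limma adjusted p = 0.164). Here Kbr replicates 1 and 2 stood above all controls, while on 225846_at only Kbr replicate 1 did. The probe set shared by ESRP2 and MIR6773 had 8.89, 8.35 and 8.33 in Kbr, against 8.53, 8.22 and 8.36 in controls, with overlap (log2 change 0.16, adjusted p = 0.427 in a fit that added it). At 24 h it had 8.49, 8.40 and 8.44 in Kbr, against 8.60, 8.32 and 8.49 in controls (log2 change -0.03, adjusted p = 0.936).

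TWIST1 had 7.64, 7.65 and 7.88 in Kbr at 48 h, against 8.37, 7.70 and 7.59 in controls. Control replicate 1 was the highest of all 12 arrays, and the log2 change of -0.16 (standard error 0.19, limma adjusted p = 0.524) was 0.08 without it. VIM had 13.85, 13.63 and 13.91 in Kbr, against 14.11, 13.87 and 14.13 in controls. The groups overlapped, and the pairs differed by much the same amount (-0.27, -0.24 and -0.22). The log2 change of VIM was -0.24 (1.18-fold lower, standard error 0.12, limma adjusted p = 0.131). With the replicate block its adjusted p was 0.0059, so that 3 of 5 members passed, against 57.5% of all genes in that fit. ZEB1 and ELF3 were the 2 of 5 members whose groups did not overlap at 48 h, and over all tested genes 50.9% did not.

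**Figure D3:**
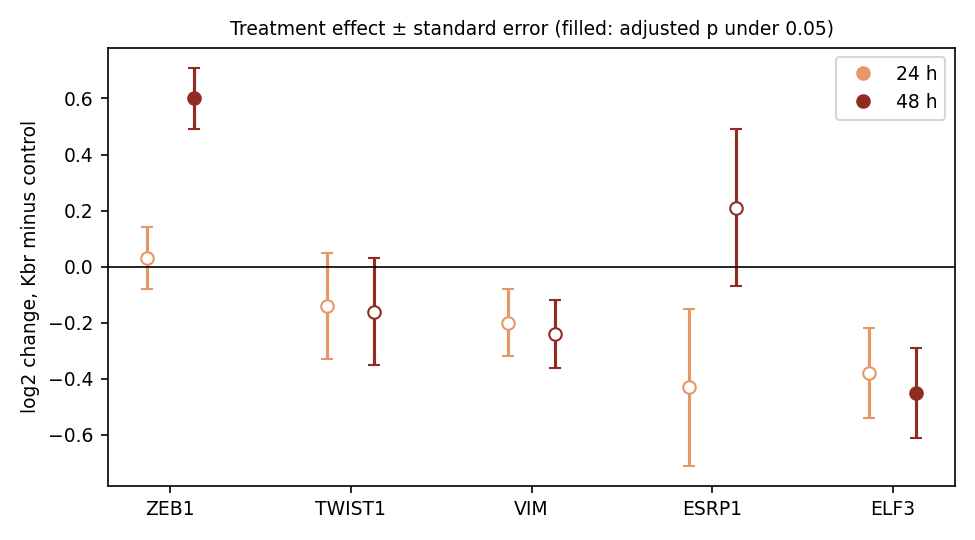
Log2 change, Kbr minus control, of the 5 measured genes at 24 h (orange) and 48 h (dark red), with limma's standard error; filled points passed the test over all genes. ZEB1 at 48 h (0.60) is the point above 0 that passed and ELF3 at 48 h (-0.45) the one below it, in the fit without the replicate block.

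**Figure D4:**
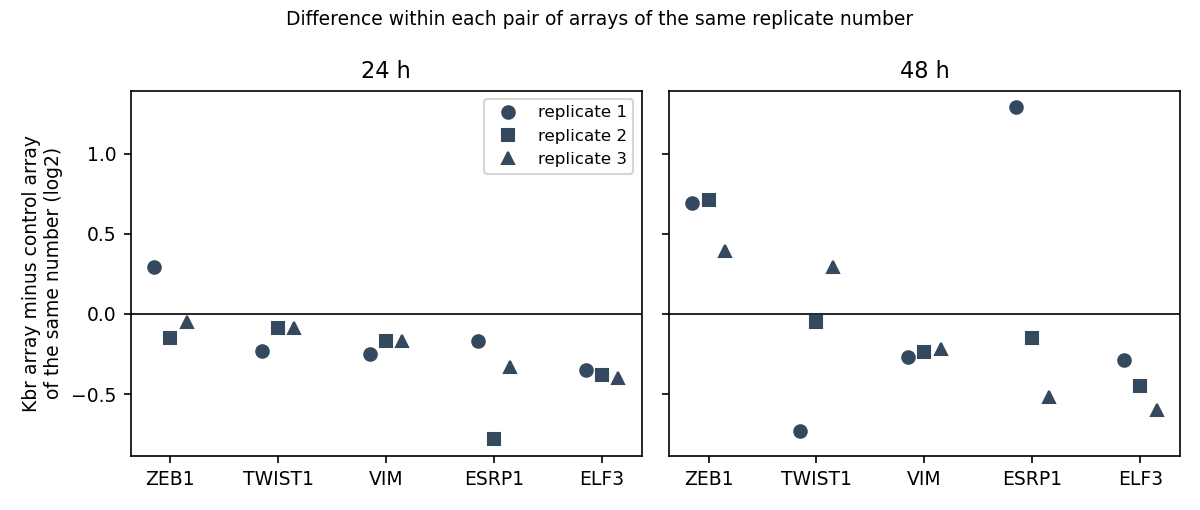
Difference in log2 expression between the Kbr array and the control array of the same replicate number at 24 h (left) and 48 h (right), with a symbol per replicate. VIM and ELF3 lie below 0 in every pair at both times, ZEB1 lies above 0 in every pair at 48 h, and ESRP1 at 48 h ranges from below 0 to 1.29.

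Averaged over both times, ZEB1 was higher (log2 change 0.31, standard error 0.08, limma adjusted p = 0.00726) and ELF3 lower in Kbr (-0.41, standard error 0.11, adjusted p = 0.0127). Both calls held in all 12 fits that left out an array, and 45.1% of all genes passed. VIM stood at -0.22 (adjusted p = 0.0583, and 0.00149 with the replicate block, where 59.2% of genes passed). TWIST1 stood at -0.15 and ESRP1 at -0.11, neither past the test. On the mesenchymal side ZEB1 and VIM differed in direction at 48 h: ZEB1 was higher in Kbr in every pair while VIM was lower in every pair. On the epithelial side ELF3 was lower in every pair at 48 h, and ESRP1 was higher in 1 pair and lower in 2.

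Whether the effect differed between the times was tested as an interaction. For ZEB1 the 48 h effect exceeded the 24 h effect by 0.57 (standard error 0.15, limma adjusted p = 0.141). It passed with the replicate block (adjusted p = 0.045), where 7.36% of all genes did, beside 0.141% without it. In the fit without the block 0 of 5 members passed, and at an unadjusted p under 0.05 it was 1, ZEB1, against 16.1% of all genes. ESRP1 had a difference of 0.63 (standard error 0.40, adjusted p = 0.471), and ELF3 (-0.07), VIM (-0.05) and TWIST1 (-0.03) had differences near 0 whose sign turned when single arrays were left out.

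In Kbr-treated cells, ZEB1 was higher at 48 h, at 7.98 ± 0.11, than at 24 h, at 7.57 ± 0.18 (SD, n = 3 each). The groups did not overlap (log2 change 0.41, standard error 0.11, limma adjusted p = 0.0394), and 1 of 5 members passed, against 10.6% of all genes. This call was not stable: it held in 4 of the 12 fits that left out an array, and adjusted p reached 0.128 without Kbr replicate 1 at 48 h, 0.121 without Kbr replicate 2 at 48 h, 0.117 and 0.111 without Kbr replicate 2 or 3 at 24 h, and 0.05 to 0.0549 without any control array at 24 h or without control replicate 1 at 48 h. The other ZEB1 probe sets did not pass: over probe sets, 210875_s_at gave 0.50 (adjusted p = 0.147), 212758_s_at gave -0.00 (adjusted p = 1), and 212764_at itself had an adjusted p of 0.0521. The mean of the ZEB1 probe sets gave a log2 change of 0.227 (adjusted p = 0.146). Without Kbr replicate 3 at 48 h 3 members passed, ESRP1, ZEB1 and VIM. ESRP1 (225846_at) had higher values at 48 h than at 24 h in Kbr, without overlap of the groups (log2 change 0.77, standard error 0.28, adjusted p = 0.102), and so in its means was 219121_s_at (1.07, adjusted p = 0.0687 over probe sets). VIM in Kbr was lower at 48 h, again without overlap (-0.39, standard error 0.12, adjusted p = 0.0634, and 0.0021 with the block, where 30.7% of genes passed). Groups of Kbr arrays at the 2 times did not overlap in 3 of 5 members and in 30.8% of all genes.

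In control cells 0 of 5 members passed between 48 h and 24 h, against 3.29% of all genes. At an unadjusted p under 0.05 it was 1, VIM, against 21.4% of all genes. VIM averaged 14.04 ± 0.14 at 48 h and 14.39 ± 0.15 at 24 h (SD, n = 3 each; log2 change -0.35, standard error 0.12, limma adjusted p = 0.138). It passed with the replicate block (adjusted p = 0.00429, where 22.5% of genes did). It was the 1 of 5 members whose control groups did not overlap, as was so for 26.4% of all genes. ZEB1 changed by -0.16 in controls (adjusted p = 0.427), ESRP1 by 0.14, TWIST1 by 0.11 and ELF3 by -0.10, none past the test.

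The genes with the pattern most like each called member were found by the root mean square difference of centred log2 values over the 12 arrays. For ZEB1 they were CXorf38 (0.073) and the mitochondrial chaperone TRAP1 (0.091), where ZEB1 itself varied about its mean by 0.241. For ELF3 they were the guanine nucleotide exchange factor DOCK9 (0.112) and NDUFAF3 (0.126), a complex I assembly factor, where ELF3 varied by 0.275. CXorf38 rose by 0.61 at 48 h (limma adjusted p = 0.00177) and TRAP1 by 0.51 (0.00247). DOCK9 stood at -0.30 (0.0879) and NDUFAF3 at -0.27 (0.0815), neither past the test. Since these genes were picked for their likeness on the same 12 arrays, such changes follow from the choice and are no separate result.

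Genes known to act beside these regulators were described at 48 h as lists, with all p values adjusted over all tested genes. Of all tested genes 42.8% passed at 48 h, 22.0% higher and 20.8% lower, and 57.5% passed with the replicate block. Every list count at 48 h stands beside these shares. Among the other transcription factors of the transition, 6 of 16 were measured, of which 0 rose and 4 fell, with a median log2 change of -0.58 beside -0.004 over all genes. SOX9, an SRY-box factor, had 5.22, 5.83 and 5.84 in Kbr, against 7.22, 6.76 and 6.35 in controls (log2 change -1.14, limma adjusted p = 0.00269). The chromatin protein HMGA2 was lower by a log2 change of -1.01 (adjusted p = 0.00592), SOX4 by -0.48 (0.00892) and the E-protein TCF4 by -0.66 (0.0301). With the mean of each gene's probe sets 1 of the list fell, and with the replicate block 5 fell. SNAI3, TWIST2, FOXC2, GSC, PRRX1, LEF1, TBX3 and KLF8 lay below 4 on every array. Of the other epithelial transcription factors 6 of 16 were measured, of which 2 rose and 1 fell, with a median of 0.30. TFCP2L1, a Grainyhead-related factor, had 4.79, 5.19 and 4.30 in Kbr, against 7.38, 7.58 and 7.15 in controls, a 6.11-fold lower level (log2 change -2.61, adjusted p = 0.000155). KLF4 rose 3.03-fold (log2 change 1.60, adjusted p = 0.000983) and FOXA1 rose by 0.40 (0.016). The FOXA1 values were low and its controls flat, at 4.87, 4.87 and 4.87, against 5.38, 5.45 and 4.98 in Kbr, near the floor of 4. Without Kbr replicate 1 or 2 at 48 h FOXA1 was lost (adjusted p up to 0.0659) and 1 of the list rose, and with the replicate block 3 rose and 2 fell.

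Junction genes include known targets of ZEB and SNAI repression such as CDH1. Of 24 junction and polarity genes 20 were measured at 48 h, of which 0 rose, 10 fell and 10 did not pass, with a median log2 change of -0.41. Over all tested genes 22.0% rose and 20.8% fell at 48 h, and 57.5% passed with the replicate block. CDH1, the epithelial cadherin, named after its values were seen, had 5.99, 5.58 and 5.90 in Kbr, against 7.01, 7.23 and 7.71 in controls (log2 change -1.49, limma adjusted p = 0.0148). The groups did not overlap, and leaving out the 48 h array of Kbr replicate 2 or of control replicate 3 ended the call (up to 0.0523). At 24 h CDH1 had 5.54, 4.19 and 6.28 in Kbr, against 6.86, 7.00 and 7.40 in controls, while ZEB1 overlapped between the groups. Whether CDH1 and ZEB1 are linked in these cells was not tested. That 24 h fall of CDH1 (-1.75, adjusted p = 0.0373) held in 5 of 12 fits that left out an array and was lost (up to 0.107) when any control array or Kbr replicate 1 or 2 was left out at 24 h, and likewise when either array of replicate 2 was left out at 48 h. PPL, the plaque protein periplakin, had 5.04, 4.66 and 4.53 in Kbr at 48 h, against 7.64, 7.63 and 7.70 in controls (log2 change -2.91, adjusted p = 4.93e-06). The tight junction protein CGN fell by 2.38 on the log2 scale and the plakoglobin gene JUP by 0.91. Without Kbr replicate 2 at 48 h 5 junction genes fell, and leaving out probe sets that can bind several transcripts also gave 5, of 12 tested. Of 14 trafficking, protease and keratin genes 11 were measured, of which 0 rose and 4 fell, with a median of -0.44. KRT19, a simple-epithelium keratin, fell by 0.96, the motor MYO5B by 0.44 and the lipid enzyme CDS1 by 0.57. Without control replicate 2 at 48 h 7 fell, without control replicate 3 there 3 fell and 1 rose, and with the replicate block 7 fell and 1 rose.

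**Figure D5:**
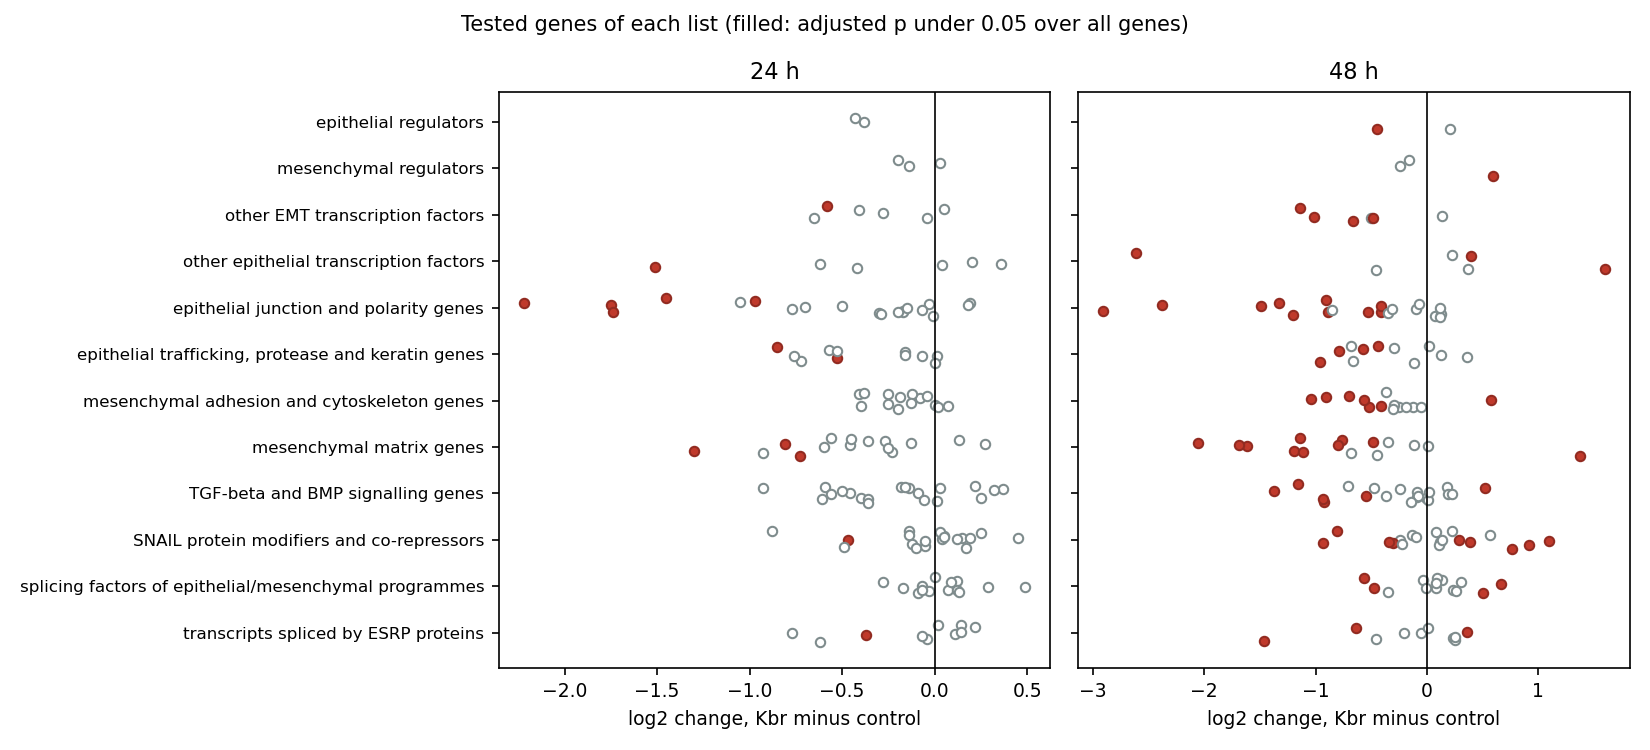
Log2 change, Kbr minus control, of every measured gene (points) in 12 lists (rows) at 24 h (left) and 48 h (right); filled points passed the test over all genes, and the vertical scatter has no meaning. At 48 h 10 junction genes and 9 matrix genes lie filled below 0, while the 2 rows of members hold 1 filled point each, on opposite sides of 0. The share of all tested genes past the test at 48 h was 22.0% above 0 and 20.8% below 0.

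Mesenchymal effector genes were described in the same way at 48 h. Among all tested genes 22.0% rose and 20.8% fell at this time, and 57.5% passed with the replicate block. Of 20 adhesion and cytoskeleton genes 14 were measured, of which 1 rose, 6 fell and 7 did not pass, with a median log2 change of -0.34. CDH2, a cadherin listed here as mesenchymal, had 9.08, 8.83 and 8.72 in Kbr, against 10.02, 9.71 and 9.65 in controls (log2 change -0.91, limma adjusted p = 0.00146). Whether CDH2 marks a mesenchymal trait in these epithelial cells was not tested. The actin gene ACTA2 fell by 0.52 and the integrin ITGB1 by 0.41. The rise was that of the integrin ITGB3 (0.58, adjusted p = 0.0362), named after its values were seen. In 4 fits that left out a 48 h array (Kbr replicate 2, Kbr replicate 3, control replicate 1, control replicate 2) 0 of this list rose and 5 or 6 fell, and with the replicate block 1 rose and 9 fell. Of 23 matrix genes 15 were measured, of which 1 rose, 9 fell and 5 did not pass, with a median of -0.76. COL1A1, a chain of type I collagen, had 6.37, 6.12 and 5.81 in Kbr, against 8.08, 8.13 and 8.28 in controls (log2 change -2.06, adjusted p = 7.34e-05). The proteoglycan DCN fell by 1.69 and tenascin (TNC) by 1.19, while CCN2, named after its values were seen, rose by 1.38. When probe sets that can bind several transcripts were left out, 8 matrix genes were tested, of which 2 rose and 3 fell. With the replicate block 1 rose and 11 fell.

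COL1A1, DCN and LUM are also the 3 of 10 fibroblast and mesangial markers that were measured. Their mean log2 value per array was 8.18 to 8.45 in Kbr at 48 h, against 10.03 to 10.19 in controls, and 9.49 to 10.08 in Kbr at 24 h, against 10.34 to 10.81 in controls. COL1A2, COL3A1, PDGFRA, PDGFRB, POSTN, THY1 and FAP lay below 4 on every array. In such bulk RNA, fewer cells of a type and less RNA per cell cannot be told apart, and the part of other cells in the results was not tested. Of the proximal tubule markers 3 were measured (SLC3A1, DPP4 and PAX8), and CUBN, LRP2, SLC34A1, SLC5A2, SLC22A6, AQP1, ANPEP, MME, GGT1 and PAX2 lay below 4 on every array, so most markers of the labelled cell type were not measured above the floor. The mean of the 3 per array was 9.95 to 10.17 in Kbr at 48 h, against 10.60 to 10.81 in controls. SLC3A1 fell by 1.91 on the log2 scale and DPP4 by 0.50, and 7 of the 12 fits that left out an array lost DPP4, with adjusted p up to 0.156. PAX8, a renal transcription factor, had a log2 change of 0.40 at 48 h (limma adjusted p = 0.128, and 0.0163 with the replicate block) and of 0.53 at 24 h (0.137, and 0.0133 with the block). Of the endothelial markers CLDN5 alone was measured, at 3.93 to 4.09 in Kbr and 3.85 to 4.25 in controls over both times, and 0 of 5 leukocyte markers were.

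Genes of TGF-beta and BMP signalling, and genes that modify or act with SNAIL, moved in both directions at 48 h. Over all tested genes 42.8% passed, 22.0% higher and 20.8% lower, and 57.5% passed with the replicate block. Of 24 TGF-beta and BMP signalling genes 20 were measured, of which 1 rose and 5 fell, with a median log2 change of -0.11. TGFBR2, the type II receptor that starts the TGF-beta signal, had 9.44, 9.92 and 10.29 in Kbr, against 11.01, 11.05 and 11.06 in controls (log2 change -1.16, limma adjusted p = 0.000507). The BMP receptor BMPR2 fell by 0.93 and the inhibitory SMAD6 by 1.37, and with the replicate block 2 of the list rose and 6 fell. Of 20 genes that modify SNAIL or serve as co-repressors 19 were measured, of which 5 rose and 4 fell, with a median of 0.11. PRMT5, an arginine methyltransferase recruited by Snail through AJUBA, had 11.31, 11.07 and 10.90 in Kbr, against 10.19, 10.04 and 10.31 in controls (log2 change 0.92, adjusted p = 0.000412). AJUBA rose by 1.10 and the methyltransferase EZH2 by 0.77. When the 48 h array of Kbr replicate 1, control replicate 1 or control replicate 2 was left out, 4 of this list rose and 2 fell, and with the replicate block 6 rose and 6 fell.

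Genes linked to the ESRP proteins form the last of these lists at 48 h, where 42.8% of all tested genes passed, and 57.5% with the replicate block. Both list counts lay below the share of 42.8% in the fit without the block. Of 14 splicing factors of epithelial or mesenchymal programmes, all measured, 2 rose and 2 fell, with a median log2 change of 0.08. RBFOX2, which promotes mesenchymal splice forms, had 9.66, 9.46 and 9.68 in Kbr, against 10.31, 10.09 and 10.09 in controls (log2 change -0.56, limma adjusted p = 0.003). KHDRBS3 rose by 0.67, lost without Kbr replicate 1 at 48 h (adjusted p = 0.0568), and MBNL2 by 0.51, lost without Kbr replicate 2 or control replicate 1 at 48 h (up to 0.0616). The KHDRBS3 values lay near the floor of 4, at 5.29, 4.77 and 4.72 in Kbr, against 4.24, 4.24 and 4.29 in controls. The count was 1 rose and 2 fell without control replicate 1, 2 rose and 1 fell without control replicate 2, and 5 rose and 2 fell with the replicate block. Of 12 transcripts that the ESRP proteins splice 10 were measured, of which 1 rose and 2 fell, with a median of -0.02. FGFR2, a classic target, had 7.49, 8.33 and 8.12 in Kbr, against 8.93, 9.70 and 9.67 in controls (log2 change -1.46, adjusted p = 0.00223), and TCF7L2 fell by 0.64. These values are of whole transcripts, and splice forms were not measured. SLK rose by 0.36, with a log2 change of -0.23 by the mean of its probe sets, and was lost when Kbr replicate 1, Kbr replicate 2 or control replicate 1 was left out at 48 h, with 0 of the list then rising (up to 0.0707). Without Kbr replicate 3 at 48 h 2 of the list rose and 2 fell, and with the replicate block 4 rose and 3 fell.

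At 24 h the same lists held fewer calls, all of them falls. The share over all tested genes was lower too, 5.74% against 42.8% at 48 h. They were 1 of 6 other factors of the transition (SOX4, -0.58), 1 of 6 other epithelial factors (TFCP2L1, -1.51), 5 of 20 junction genes, 2 of 11 trafficking and keratin genes, 0 of 14 adhesion genes and 3 of 15 matrix genes. They were 0 of 20 signalling genes, 1 of 19 SNAIL modifiers (LATS2, -0.47), 0 of 14 splicing factors and 1 of 10 ESRP-spliced transcripts (TCF7L2, -0.37). The kinase gene PRKD1 (-0.88, limma adjusted p = 0.0527) and the inhibitory SMAD7 (-0.61, 0.0548) lay just outside the threshold, and with the replicate block their adjusted p was 0.00337 for PRKD1 and 0.00986 for SMAD7. At an unadjusted p under 0.05 the counts of 0 were 2 adhesion genes, 7 signalling genes and 2 splicing factors, beside the same 23.7% of all genes. With the replicate block 8 junction, 6 trafficking, 2 adhesion, 8 matrix, 8 signalling, 2 other epithelial factor, 3 ESRP-spliced and 3 SNAIL modifier genes fell. In the same fit 1 SNAIL modifier and 1 splicing factor rose, and 24.4% of all genes passed in either direction. Of 13 named genes called at 24 h, the markers included but CDH1 not, CGN, PPL and COL1A1 passed in every fit that left out an array. CDH1, named after its values were seen, passed in 5 of 12 such fits. The junction count was 2 when Kbr replicate 2 or control replicate 1 was left out at 24 h, and 3 when another 24 h array or a 48 h array of replicate 2 was. The matrix count was 1 without control replicate 1 at 24 h. The signalling count was 1 without control replicate 2 at 24 h or Kbr replicate 1 at 48 h, and 2 without control replicate 3 at 24 h, where 1 SNAIL modifier rose and 2 fell. SOX4, TFCP2L1, LATS2 and TCF7L2 were each the 1 call of its list. All were lost when Kbr replicate 3, control replicate 1 or control replicate 2 at 24 h was left out, and each in further fits. SOX4 and TFCP2L1 held in 8 of the 12 fits, and LATS2 and TCF7L2 in 7 of 12. The trafficking count was 0 or 1 when any 24 h array was left out.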

How the data were processed

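Gene expression was measured in 12 samples of HK-2 cells on an Affymetrix array of 54675 probe sets. The deposited values are log2 expression, and the submitters' processing notes name GCRMA, whose version is not given in the sources used here. Whether the normalization took in further arrays was not stated. Every sample column was used (0 unused), and the labels call the 3 arrays of a group biological replicates. Probe sets with 1 annotated symbol were kept (41097; 1801 with several symbols were not), and the probe set with the highest mean stood for each gene. Genes above a log2 value of 4 on at least 3 arrays were tested (10665; 9110 were left out).

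All 12 arrays were fitted with limma 3.58.1 in R 4.3.3 (lmFit and eBayes), without covariates, and p-values were adjusted by Benjamini-Hochberg over all genes with a threshold of 0.05. A second fit took each of 19527 probe sets by itself. The code was tested on simulated data. The labels number the replicates 1 to 3 in every group: deviations from group means correlated at r = 0.279 to 0.701 in all 18 same-number pairs and at -0.454 to -0.0613 in the 36 others, so the numbers were taken to pair the arrays, and values from the fit with that block are given where they change a member's call or a list's count. Alternatives were this block (statmod 1.5.0 was loaded for limma), no filter, a floor of 6, repeated quantile normalization, centring each array, averaging a gene's probe sets, no _x_at or _s_at probe sets, only the groups compared, a trended robust variance, array weights and leaving out each array. The several-symbol probe set of ESRP2 was added after seeing the data.

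The members and lists were chosen with earlier results of these data known. Named genes were all members, up to 3 genes of each list with the smallest p at each time, and the 2 genes nearest in pattern to each member called at 48 h. The lists held other transcription factors of the transition, other epithelial factors, junction and polarity genes, trafficking, protease and keratin genes, adhesion genes, matrix genes, TGF-beta and BMP signalling genes, SNAIL modifiers, splicing factors, ESRP-spliced transcripts, and proximal tubule, fibroblast, endothelial and leukocyte markers. The number of arrays limits the precision.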

Additional observations from a re-analysis of the deposited data

How the results depend on the processing

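Counts of members past the test, of 5, depended on the setting as follows. At 24 h the count of 0 became 2 with the replicate block. At 48 h the count of 2 became 1, without ELF3, with no filter, with the mean of probe sets, without _x_at and _s_at probe sets and with only the groups compared, and was 1 to 2 when single arrays were left out. Averaged over both times, 2 became 1 with the mean of probe sets and without _x_at and _s_at probe sets, and was 2 to 3 when single arrays were left out. The interaction and the control time comparison had 0, and 1 each with the replicate block. Between 48 h and 24 h in Kbr, 1 became 2 with the block, 3 with array weights, and 0 with no filter, with array medians subtracted, with the mean of probe sets and with only the groups compared, and was 0 to 3 when single arrays were left out. Among probe sets, the 24 h count of 0 became 1 with the block, and the 48 h count of 3 became 1 without _x_at and _s_at probe sets and was 2 to 3 when single arrays were left out. The block changed no other call of a member than ELF3 and VIM at 24 h, VIM at 48 h, averaged and over time in both treatments, and ZEB1 in the interaction. Over all genes, 612 calls at 24 h became 2602 with the block and 1388 with array weights.

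Signs turned for small values. Without _x_at and _s_at probe sets ELF3 had an interaction of 0.049, a control time change of 0.011 and a Kbr time change of 0.060, and with the mean of probe sets ELF3 had a control time change of 0.081 and SLK -0.227 at 48 h. Array weights gave TWIST1 an interaction of 0.028 and repeated quantile normalization gave CLDN5 0.002 at 24 h. When single arrays were left out, the difference at 48 h ranged from -0.136 to 0.509 for ESRP1, -0.311 to 0.081 for TWIST1 and -0.095 to 0.105 for CLDN5, and that at 24 h from -0.062 to 0.118 for ZEB1 and -0.053 to 0.010 for CLDN5. The interaction ranged from -0.205 to 0.076 for ELF3, -0.174 to 0.217 for TWIST1 and -0.128 to 0.039 for VIM, and the control time change from -0.242 to 0.039 for ELF3 and -0.136 to 0.256 for TWIST1. Why these values turned was not tested. Using only the groups compared gives no average or interaction, and the mean of probe sets gives no fit by probe set. The 4 members below the floor were compared only in the fit with no filter. The probe set that ESRP2 shares with MIR6773 was compared only in the fit that added it.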
